A study of Mus musculus with 18 samples.

Results

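The genes described here are 33 mouse genes for glucose uptake, glycolysis, lactate handling and glycogen turnover. They were taken by a fixed list of symbols, mapped to Ensembl gene IDs through a table of gene names, from a count table of 54532 genes; ENSMUSG00000030695 was the ID used for Aldoa. All 33 passed the filter on low counts, as did 17833 genes in all. Polyadenylated RNA from the gastrocnemius, the large calf muscle, had been sequenced in 18 libraries from female C57BL/6 mice. The mice were flox/flox or carried a muscle knockout of Zfp697 (mKO), and each genotype was sampled as untreated controls, after 10 days of unloading, and after 3 days of reloading in an unloading-reloading protocol, with 3 libraries in each of the 6 groups. Zfp697 encodes an RNA-binding zinc finger protein. The labels name no promoter or Cre line for the deletion, give no ages, and do not say whether each library came from a separate mouse, so the p-values speak only to the spread among the libraries at hand, which may be technical.

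Glucose enters muscle fibres through transporters of the Slc2a family, is phosphorylated by hexokinase, and is carried through glycolysis to pyruvate, which lactate dehydrogenase can turn into lactate to restore the cofactor NAD. Muscle also stores glucose as glycogen. Glycogen synthase and the branching enzyme build it, and glycogen phosphorylase releases glucose phosphate from it after activation by phosphorylase kinase, a complex of alpha, beta, gamma and calmodulin subunits. The gastrocnemius is rich in fast fibres, which draw heavily on this pathway during contraction.

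Library totals lay between 45069595 and 51592566 counts, and a single member had between 79 and 711435 counts in a library. Levels are CPM, counts scaled to a common library total with TMM factors, and every change is a log2 fold change with its standard error from 1 edgeR fit over all 17833 genes. A gene is said to rise or fall where its Benjamini-Hochberg adjusted p over all tested genes was under 0.05. The whole-gene level of Zfp697 was low and separated the genotypes in 1 condition: it ran from 0.984 to 1.598 CPM in flox and from 1.05 to 1.31 CPM in mKO controls, from 1.59 to 1.74 CPM and 1.09 to 2.47 CPM after unloading, and from 2.33 to 2.80 CPM and 1.48 to 1.95 CPM after reloading (log2 difference -0.61 ± 0.25, adjusted p = 0.172). Counts over the whole gene need not show a partial deletion, so "mKO" below stands for the libraries labelled mKO. Tissue markers also moved in reloaded flox libraries. There, 13 summed myofibre markers were at 133600 to 155300 CPM against 152500 to 171500 CPM in unloaded flox libraries, ranges that overlapped. The 15 macrophage and monocyte markers stood apart, at 354.5 to 533.1 CPM against 169 to 204.6 CPM. A setting chosen after seeing the data therefore also scaled the libraries to the summed counts of the myofibre markers (myofibre scaling). In whole muscle, fewer fibres and less RNA per fibre cannot be told apart.

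The members include the most abundant transcripts of the muscle glycolytic pathway and some scarce ones. Per kilobase of counted exon, the mean CPM over all 18 libraries was 4269 for Aldoa (aldolase A), 3675 for Eno3 (the muscle enolase), 2155 for Pygm (muscle glycogen phosphorylase), 1793 for Pgam2 (the muscle phosphoglycerate mutase) and 1186 for Pfkm (muscle phosphofructokinase). At the other end stood Pgam1 with 4.52, the transporter Slc2a1 with 2.94, Hk1 with 1.61 and Slc2a3 with 0.552 CPM per kilobase. The 33 genes together took 4.91 to 5.05% of all counts in flox control libraries, 5.33 to 5.49% after unloading and 4.36 to 4.62% after reloading, so the 3 flox conditions did not overlap. In mKO libraries the share was 4.66 to 5.27%, 4.99 to 5.62% and 4.85 to 5.12%, and the 3 conditions overlapped.

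Reloading moved more of the genes than unloading did, mostly downward in flox muscle. In flox muscle 3 of 33 members rose and 0 fell on unloading, against a background over all tested genes of 2.67% rising and 3.07% falling. From unloading to reloading 5 rose and 14 fell (background 17% and 14.9%), and from control to reloading 4 rose and 10 fell (background 12.3% and 10.3%). The median log2 change of the 33 was 0.083, -0.139 and -0.151 in these comparisons, where the median of all tested genes was between -0.002 and 0.004. In mKO muscle 3 rose and 1 fell on unloading (background 4.09% and 3.66%), 4 rose and 7 fell from unloading to reloading (9.53% and 8.81%), and 1 rose and 1 fell from control to reloading (1.34% and 0.841%), with member medians of 0.104, 0.006 and 0.112. In all, 22 members passed in at least 1 of these 6 comparisons. The share of all genes that did so was not counted, so the 22 are not read as a result about the members. The 11 that passed in none were Slc2a1, Slc2a4, Hk2, Tpi1, Gapdh, Pgk1, Eno3, Ldha, Ldhb, Slc16a3 and Gys1.

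**Figure D1:**
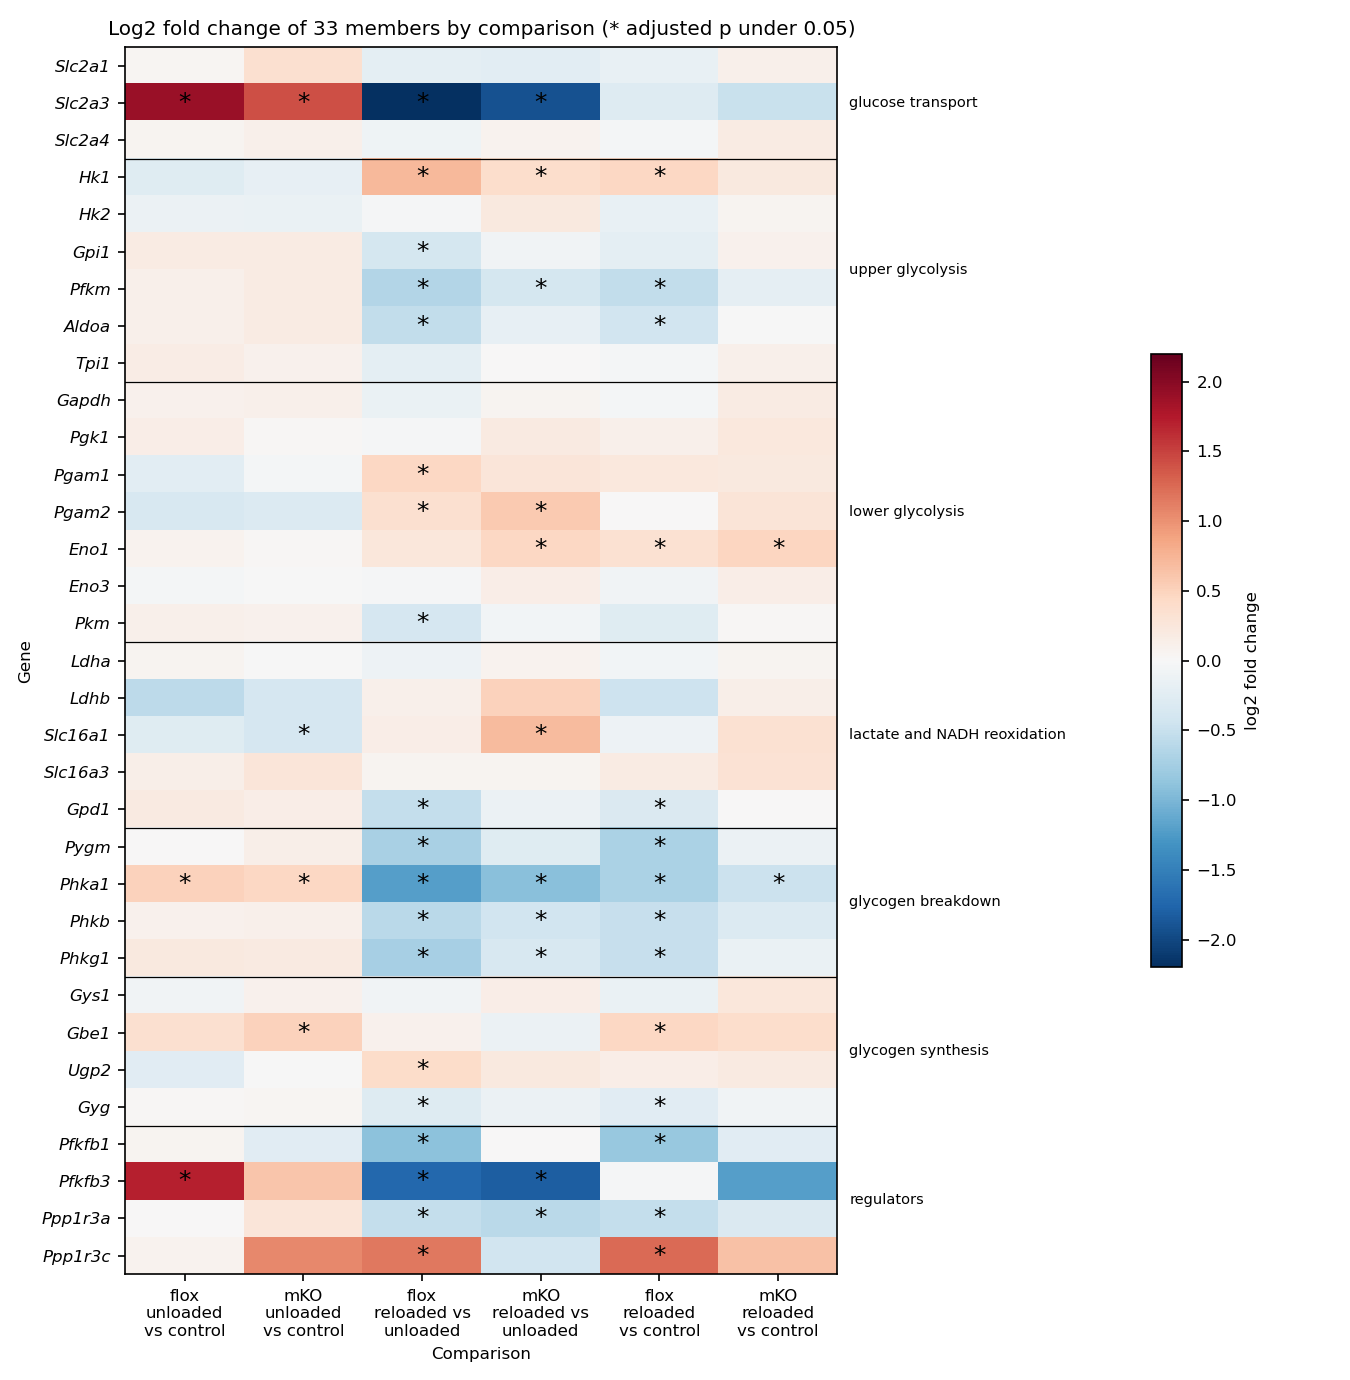
Log2 fold change (colour) of the 33 genes (rows, grouped by role) in the 6 loading comparisons (columns), with an asterisk where the adjusted p was under 0.05. Slc2a3 and Pfkfb3 carry the deepest colours, with falls of -2.18 and -1.73 on flox reloading, and all 4 glycogen breakdown genes fell in reloaded flox muscle against both other flox groups.

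Of the 3 glucose transporters, only Slc2a3 passed the test. Slc2a3 (GLUT3; chromosome 6, 122727809 to 122801640, GRCm38) is a high-affinity transporter best known from neurons and white blood cells. Slc2a3 stood at 2.02, 2.17 and 2.41 CPM in the flox control libraries, 6.83, 10.1 and 7.78 CPM after unloading and 2.04, 1.87 and 1.53 CPM after reloading. For Slc2a3 in the mKO libraries the levels were 2.79, 3.08 and 2.14, then 6.55, 7.99 and 6.97, then 1.80, 2.10 and 1.80 CPM. In both genotypes the unloaded libraries lay above every control and reloaded library of that genotype. Slc2a3 rose on unloading (1.91 ± 0.17, adjusted p = 1.75e-05 in flox; 1.42 ± 0.17, adjusted p = 0.000162 in mKO) and fell from unloading to reloading (-2.18 ± 0.17, adjusted p = 1.88e-07 in flox; -1.91 ± 0.17, adjusted p = 5.21e-06 in mKO). These 4 calls held with each library left out in turn and under all other settings. The rise in flox was 3.75-fold. Some markers of other cells also changed in these comparisons. The 7 neutrophil markers, 3 of them high enough to be tested, summed to 0.569 to 1.43 CPM in flox controls, 0.745 to 8.77 CPM after unloading and 1.24 to 2.19 CPM after reloading, and to 0.386 to 1.1, 0.786 to 3.78 and 0.777 to 0.963 CPM in mKO. In each group but unloaded flox, 1 or 2 of them were at 0 in all libraries, and the median change of the tested ones was 2.46 on flox unloading, 1.41 on mKO unloading and then -2.25 and -1.83 on reloading, with 1 call, a rise of Csf3r on mKO unloading. The high neutrophil values came largely from 1 unloaded library per genotype. S100a9 was at 0.165, 0.0827 and 3.74 CPM in unloaded flox replicates 1, 2 and 3, where Slc2a3 was highest in replicate 2. In unloaded mKO it was at 0.175, 1.32 and 0.299 CPM, where Slc2a3 was also highest in replicate 2. The 7 Schwann cell and nerve markers, none at 0 throughout a group, summed to 193 to 336.2 CPM in flox controls, 368 to 392 CPM after unloading and 208.3 to 363.8 CPM after reloading, and to 269.3 to 336.3, 181.8 to 354.5 and 307.7 to 361.8 CPM in mKO. Their median changes were 0.56 (1 rose) and -0.53 (2 fell) in flox, against -0.01 and 0.24 (0 called) in mKO muscle. Macrophage and monocyte markers had a median of -0.02 on flox unloading, with 0 called. The part of these cells in the Slc2a3 changes was not tested. Relative to Slc2a4, the per-kilobase level of Slc2a3 was still low, 154-fold lower in unloaded flox muscle and 550-fold lower in flox controls. Slc2a4 (GLUT4), the insulin-responsive transporter of muscle, ranged from 529 to 650.5 CPM over all 18 libraries. Slc2a1 (GLUT1), the widespread basal transporter, ranged from 7.32 to 12.4 CPM, and its log2 change in unloaded mKO muscle was 0.35 (adjusted p = 0.0799).

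In the upper part of glycolysis the scarce hexokinase rose on reloading while several abundant enzymes fell. Hk1, the hexokinase found in most tissues, was measured beside Hk2, the main hexokinase of adult muscle. Hk1 stood at 14.3, 13.8 and 13.1 CPM in the flox control libraries, 11.4, 11.6 and 11.3 CPM after unloading and 17.6, 20.4 and 18.4 CPM after reloading. For Hk1 in the mKO libraries the levels were 10.2, 12.3 and 15.4, then 10.7, 10.9 and 12.01, then 14.9, 14.99 and 13.97 CPM. Every reloaded flox library lay above the control and unloaded ones. Hk1 rose from unloading to reloading in flox (0.72 ± 0.11, adjusted p = 0.00011) and mKO (0.39 ± 0.11, adjusted p = 0.0235), and from control to reloading in flox (0.45 ± 0.11, adjusted p = 0.007). The mKO call was lost without mKO unloading replicates 1 or 2 or mKO reloading replicates 1 or 2 (adjusted p = 0.0627 to 0.0925), and when libraries were scaled to myofibre markers, with 0.32 (adjusted p = 0.176). Hk2 ranged from 349 to 500 CPM and passed in no comparison.

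Pfkm carries the committed step of glycolysis in muscle. Pfkm stood at 4061, 4380 and 4311 CPM in the flox control libraries, 4443, 4498 and 4797 CPM after unloading and 2897, 2772 and 3091 CPM after reloading. For Pfkm in the mKO libraries the levels were 3705, 4216 and 4064, then 4332, 4369 and 4933, then 3640, 3234 and 3590 CPM. All reloaded libraries lay below the other libraries of their genotype. It fell on reloading from the unloaded state (-0.65 ± 0.09, adjusted p = 1.88e-05 in flox; -0.38 ± 0.09, adjusted p = 0.0044 in mKO) and from the control state in flox (-0.54 ± 0.09, adjusted p = 0.000217). The mKO call was lost in a fit of only the compared groups (adjusted p = 0.0757).

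Aldolase A splits fructose bisphosphate. Aldoa stood at 13350, 13470 and 11760 CPM in the flox control libraries, 13770, 14140 and 13850 CPM after unloading and 9258, 9493 and 10100 CPM after reloading. For Aldoa in the mKO libraries the levels were 10810, 13580 and 12160, then 12830, 13350 and 15200, then 13510, 10750 and 12270 CPM. The reloaded flox libraries lay below the other flox libraries, while the mKO ranges overlapped between control and reloading. Aldoa fell in flox from unloading (-0.53 ± 0.11, adjusted p = 0.00089) and from control (-0.42 ± 0.11, adjusted p = 0.00774) to reloading; the second was not called when libraries were scaled to myofibre markers, with -0.14 (adjusted p = 0.206). Gpi1, glucose phosphate isomerase, fell from unloading to reloading in flox (-0.39 ± 0.10, adjusted p = 0.0051), again not when scaled to myofibre markers, with -0.22 (adjusted p = 0.0791). Tpi1, triose phosphate isomerase, ranged from 1996 to 2744 CPM and passed nowhere.

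Lower glycolysis held both directions. Pgam2 encodes the muscle phosphoglycerate mutase. Pgam2 stood at 1621, 1587 and 1449 CPM in the flox control libraries, 1027, 1238 and 1383 CPM after unloading and 1612, 1459 and 1600 CPM after reloading. For Pgam2 in the mKO libraries the levels were 1535, 1738 and 1392, then 981, 1427 and 1388, then 1981, 1745 and 1948 CPM. The reloaded libraries lay above the unloaded ones in both genotypes, and the unloaded ones spread widely. Pgam2 rose from unloading to reloading in flox (0.36 ± 0.13, adjusted p = 0.0449) and in mKO (0.58 ± 0.13, adjusted p = 0.00508). The flox call was lost without flox unloading replicates 1 or 2 or flox reloading replicates 1, 2 or 3 (adjusted p = 0.0617 to 0.216) and in a fit of only the compared groups (adjusted p = 0.0544).

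Eno1, the enolase of most tissues, rose in flox from control to reloading (0.34 ± 0.11, adjusted p = 0.0379) and in mKO from unloading (0.46 ± 0.11, adjusted p = 0.00857) and control (0.48 ± 0.11, adjusted p = 0.0333) to reloading. These calls were lost, in that order, without flox control replicates 1 or 3 or flox reloading replicates 2 or 3 (adjusted p = 0.0981 to 0.143), without mKO unloading replicate 1 (adjusted p = 0.0575) and without mKO control replicates 1 or 3 or mKO reloading replicates 1 or 3 (adjusted p = 0.0682 to 0.144). The last was also lost in a fit of only the compared groups (adjusted p = 0.0998). Pgam1, the mutase of most tissues, rose in flox from unloading to reloading (0.46 ± 0.13, adjusted p = 0.0134), though not without flox unloading replicate 3 or flox reloading replicate 1 (adjusted p = 0.0509 to 0.0705). Pkm, pyruvate kinase, fell there (-0.37 ± 0.11, adjusted p = 0.0118), though not without flox unloading replicate 3 or flox reloading replicate 1 (adjusted p = 0.0504 to 0.055) or when scaled to myofibre markers, with -0.20 (adjusted p = 0.101). Gapdh, Pgk1 and Eno3, the other steps of this stretch, passed nowhere, with log2 changes between -0.14 and 0.23 over the 6 loading comparisons. Copies of some of these genes limit their values: 82.5% of the 50-base stretches of the longest Gapdh transcript, 72.2% of those of Eno1, 68.0% of those of Pgk1, 41.5% of those of Pgam1 and 34.4% of those of Pkm occurred in transcripts of other genes, so their levels are uncertain. For Aldoa, Gpi1, Gpd1, Ldha, Ldhb and Phkg1 the share was 10.3 to 27.0%. Exons of other genes covered 9.68 to 15.3% of the counted bases of Pkm, Gpd1, Gpi1, Pfkm and Phkg1, with no strand option in the counting command.

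Among genes for lactate and for reoxidation of NADH, Slc16a1 and Gpd1 passed and the lactate dehydrogenases did not. Slc16a1 (MCT1), a lactate and pyruvate carrier, is best known for lactate uptake in oxidative fibres. Slc16a1 stood at 75.6, 70.5 and 60.6 CPM in the flox control libraries, 55.6, 66.7 and 49.6 CPM after unloading and 60.97, 64.6 and 64.7 CPM after reloading. For Slc16a1 in the mKO libraries the levels were 61.3, 55.5 and 58.8, then 49.5, 43.4 and 43.8, then 66.02, 76.7 and 79.2 CPM. Only in mKO did the unloaded libraries lie below all others of the genotype. It fell on mKO unloading (-0.36 ± 0.10, adjusted p = 0.0423) and rose on mKO reloading (0.70 ± 0.10, adjusted p = 0.000211). The fall was lost without mKO control replicates 1, 2 or 3 or mKO unloading replicates 1, 2 or 3 (adjusted p = 0.0619 to 0.141), with total-count scaling (adjusted p = 0.0651) and with myofibre scaling (adjusted p = 0.301). The rise was 0.15 in flox; the difference between genotypes was 0.55 ± 0.15, adjusted p = 0.17, which did not pass, although DESeq2 gave it an adjusted p of 0.0491. That gene's partner Slc16a3 (MCT4), the exporter of fast fibres, ranged from 209 to 348 CPM.

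Gpd1, the cytosolic glycerol phosphate dehydrogenase, regenerates NAD from NADH. Gpd1 stood at 583, 598 and 616 CPM in the flox control libraries, 680.1, 653 and 740.5 CPM after unloading and 483, 419 and 543 CPM after reloading. For Gpd1 in the mKO libraries the levels were 691, 696 and 607, then 659.8, 732 and 813, then 684, 602 and 729.5 CPM. The reloaded flox libraries lay below every other library. Gpd1 fell in flox from unloading to reloading (-0.52 ± 0.10, adjusted p = 0.000868) and from control to reloading (-0.31 ± 0.10, adjusted p = 0.0343). The second call was lost without flox control replicates 1, 2 or 3 or flox reloading replicates 1 or 2 (adjusted p = 0.0549 to 0.176), with total-count scaling (adjusted p = 0.172) and with myofibre scaling (adjusted p = 0.778). Ldha, the muscle subunit of lactate dehydrogenase, had log2 changes between -0.11 and 0.07 in the loading comparisons. Ldhb, the heart subunit, had a log2 change of -0.57 on flox unloading (adjusted p = 0.108), for which DESeq2 gave an adjusted p of 0.0478.

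Glycogen breakdown was the role in which all members fell together in reloaded flox muscle. Pygm encodes muscle glycogen phosphorylase (chromosome 19, 6384399 to 6398459), and Phka1 (chromosome X, 102513975 to 102644246), Phkb (chromosome 8, 85840959 to 86061376) and Phkg1 (chromosome 5, 129863421 to 129898549; all GRCm38) encode the alpha, beta and gamma subunits of muscle phosphorylase kinase. Their promoter windows, from 250 bases before to 50 after the RefSeq start on GRCm38.p6, are printed because the 4 genes fell together; capitals mark the E-box letters CANNTG, which read the same on both strands and which myogenic and other helix-loop-helix factors can bind.
Pygm, chr19:6384158-6384457, plus strand: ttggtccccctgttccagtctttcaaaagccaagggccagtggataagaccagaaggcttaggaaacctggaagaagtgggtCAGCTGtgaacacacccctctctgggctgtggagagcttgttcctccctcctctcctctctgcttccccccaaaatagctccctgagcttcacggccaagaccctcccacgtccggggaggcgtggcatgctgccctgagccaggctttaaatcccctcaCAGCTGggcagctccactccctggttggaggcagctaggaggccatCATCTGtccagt
Phka1, chrX:102644197-102644496, minus strand: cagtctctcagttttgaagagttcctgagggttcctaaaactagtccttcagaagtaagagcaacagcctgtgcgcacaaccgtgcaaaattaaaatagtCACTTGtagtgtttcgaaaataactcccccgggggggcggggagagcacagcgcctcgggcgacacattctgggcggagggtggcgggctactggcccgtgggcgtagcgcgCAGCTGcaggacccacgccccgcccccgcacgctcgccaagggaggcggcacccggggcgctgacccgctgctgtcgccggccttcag
Phkb, chr8:85840738-85841037, plus strand: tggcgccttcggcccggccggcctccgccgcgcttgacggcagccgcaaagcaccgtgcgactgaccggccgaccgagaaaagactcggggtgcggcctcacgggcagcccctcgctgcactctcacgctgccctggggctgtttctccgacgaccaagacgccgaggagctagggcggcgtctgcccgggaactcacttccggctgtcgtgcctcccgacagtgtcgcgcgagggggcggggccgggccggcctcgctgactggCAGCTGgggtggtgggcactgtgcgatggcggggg
Phkg1, chr5:129879039-129879338, minus strand: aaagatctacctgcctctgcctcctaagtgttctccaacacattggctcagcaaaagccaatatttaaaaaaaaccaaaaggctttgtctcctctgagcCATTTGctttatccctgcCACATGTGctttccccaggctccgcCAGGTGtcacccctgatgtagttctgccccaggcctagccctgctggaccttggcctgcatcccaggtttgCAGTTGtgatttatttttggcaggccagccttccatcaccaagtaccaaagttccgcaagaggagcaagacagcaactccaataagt
The windows held 3, 2, 1 and 5 matches, those of Phkg1 including an overlapping pair. Over the 30 members found in the promoter table, 24 had at least 1 match, where 75.0% of all 27025 genes did; Slc2a3, Slc2a4 and Gpd1 had no entry. The AT-rich MEF2 motif was found in the window of 1 member, Ppp1r3a, and in 0.6% of genes.

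Pygm stood at 7512, 8079 and 7565 CPM in the flox control libraries, 7286, 7897 and 8117 CPM after unloading and 4397, 4551 and 5334 CPM after reloading. For Pygm in the mKO libraries the levels were 6065, 8267 and 6944, then 6724, 7908 and 8725, then 6826, 5688 and 6935 CPM. Reloaded flox libraries were below all other libraries, and reloaded mKO libraries overlapped both other mKO groups. Pygm fell in flox from unloading (-0.71 ± 0.12, adjusted p = 0.000279) and from control (-0.70 ± 0.12, adjusted p = 0.000565) to reloading. In mKO the reloading change from unloading was -0.26 ± 0.12, adjusted p = 0.146. Phka1 stood at 968, 1019 and 1356 CPM in the flox control libraries, 1506, 1546 and 1705 CPM after unloading and 642, 663 and 754 CPM after reloading. For Phka1 in the mKO libraries the levels were 1082, 1092 and 1277, then 1436, 1649 and 1665, then 886, 758 and 852 CPM. Unloaded libraries lay above, and reloaded ones below, the controls of both genotypes.

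Phka1 rose on unloading in flox (0.51 ± 0.12, adjusted p = 0.017) and mKO (0.46 ± 0.12, adjusted p = 0.0238), then fell from unloading to reloading in flox (-1.21 ± 0.12, adjusted p = 1.16e-06) and mKO (-0.93 ± 0.12, adjusted p = 6.53e-05). It was also below control after reloading, in flox (-0.70 ± 0.12, adjusted p = 0.000412) and in mKO (-0.47 ± 0.12, adjusted p = 0.0457). The rises were lost without flox control replicates 1 or 2 or flox unloading replicate 3 (adjusted p = 0.0639 to 0.097) in flox, and without mKO control replicates 1 or 2 or mKO unloading replicates 2 or 3 (adjusted p = 0.0567 to 0.0893) in mKO. A fit of only the compared groups gave the flox rise an adjusted p of 0.0522. The mKO fall below control was lost with any 1 of its 6 libraries left out (adjusted p = 0.0568 to 0.213), with RLE size factors (adjusted p = 0.0501), with only the compared groups (0.0919) and with myofibre scaling (0.0588).

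The other kinase subunits fell on reloading without a called rise before it. Phkb stood at 605, 590.5 and 673 CPM in the flox control libraries, 678, 624 and 686 CPM after unloading and 436, 398 and 478 CPM after reloading. For Phkb in the mKO libraries the levels were 608, 674 and 621, then 669, 704 and 693, then 487, 494 and 561 CPM. The reloaded libraries were the lowest of each genotype. Phkg1 stood at 538, 586 and 649 CPM in the flox control libraries, 717, 698 and 649 CPM after unloading and 432, 372 and 448 CPM after reloading. For Phkg1 in the mKO libraries the levels were 632, 592 and 581, then 697, 659.7 and 718, then 537, 529 and 563 CPM. For this gene too the reloaded libraries lay below the unloaded and control libraries of the same genotype. Phkb fell from unloading to reloading in flox (-0.60 ± 0.09, adjusted p = 3.94e-05) and mKO (-0.42 ± 0.08, adjusted p = 0.00212), as did Phkg1 (-0.72 ± 0.09, adjusted p = 6.61e-06 in flox; -0.35 ± 0.08, adjusted p = 0.00782 in mKO). From control to reloading in flox, the changes were -0.51 ± 0.09, adjusted p = 0.000334 for Phkb and -0.50 ± 0.09, adjusted p = 0.000381 for Phkg1. With myofibre scaling these last changes were -0.24 (adjusted p = 0.0915) and -0.23 (adjusted p = 0.167), no longer called. The overlapping exons of Phkg1 belong to Sumf2.

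**Figure D2:**
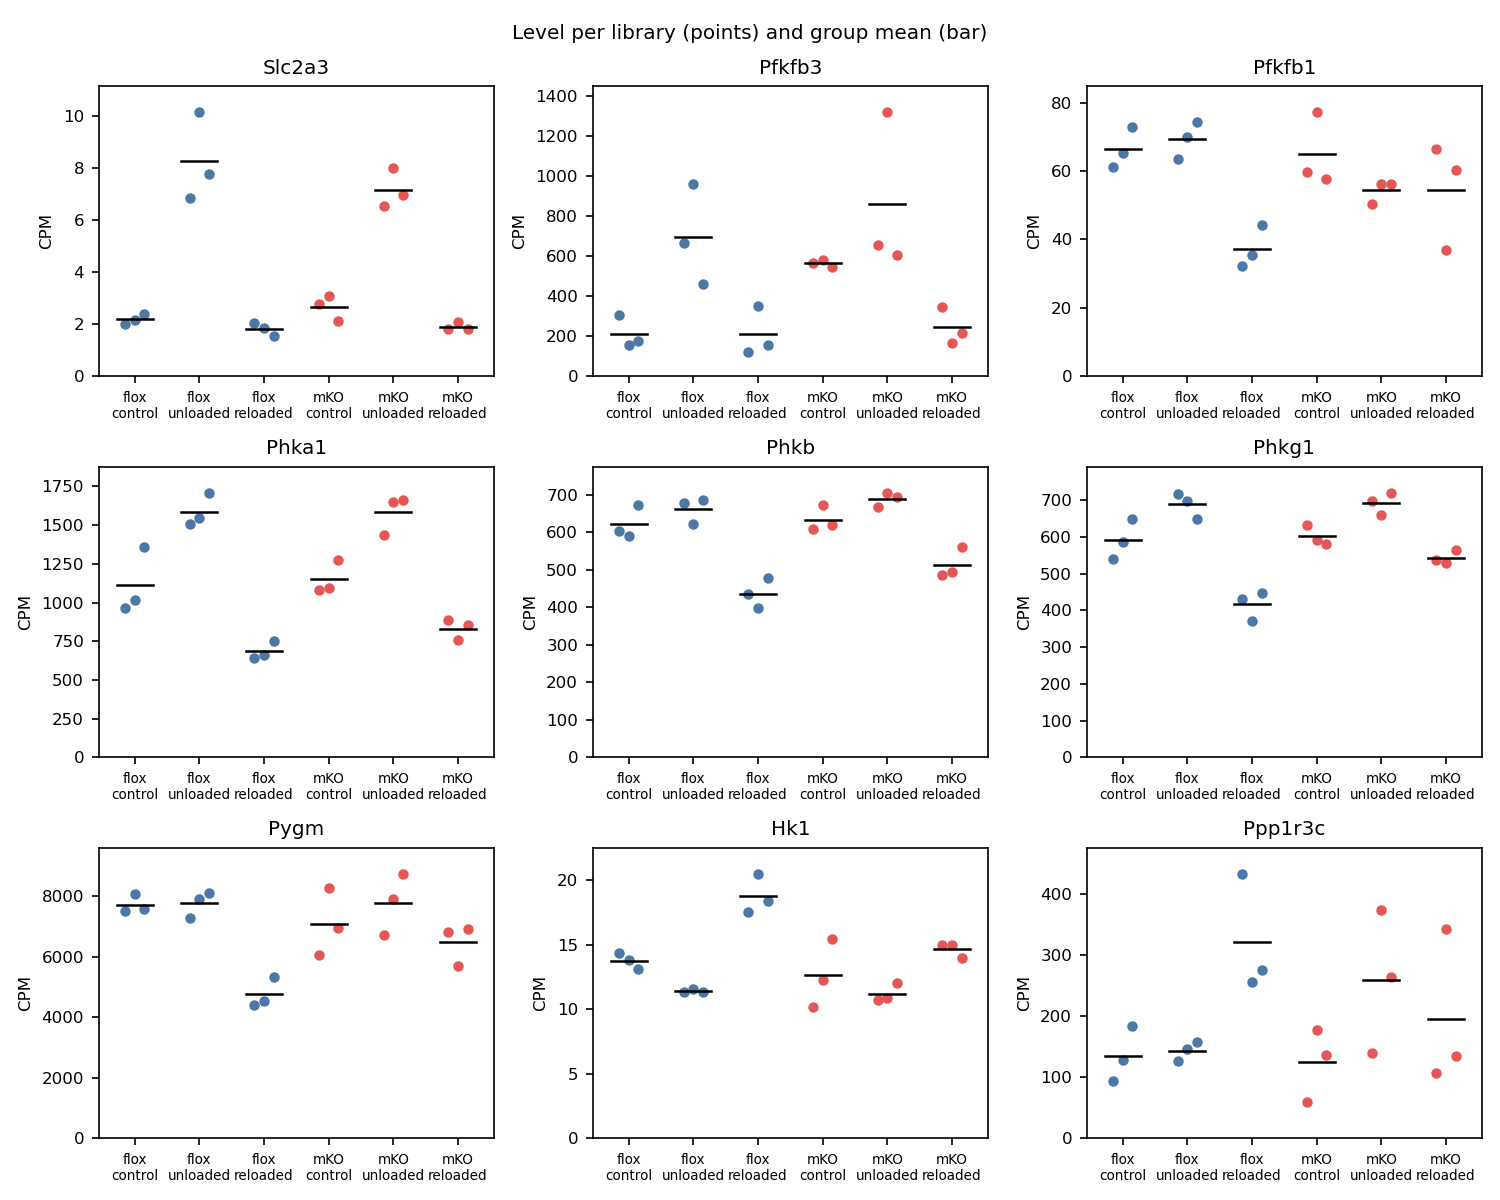
CPM (vertical axis, from 0) of 9 genes in each library (points) of the 6 groups, with the group mean as a bar. Slc2a3 is highest in the unloaded libraries of both genotypes, between 6.55 and 10.1 CPM, and Pygm is lowest in the reloaded flox libraries, between 4397 and 5334 CPM.

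Genes for glycogen synthesis moved less. Gbe1 encodes the branching enzyme. Gbe1 stood at 81.1, 73.7 and 81.97 CPM in the flox control libraries, 79.98, 110.4 and 112 CPM after unloading and 107, 109.8 and 107 CPM after reloading. For Gbe1 in the mKO libraries the levels were 67.98, 58.6 and 79.5, then 87.6, 113 and 90.7, then 99.00, 88.8 and 80.4 CPM. It rose in mKO on unloading (0.50 ± 0.13, adjusted p = 0.026) and in flox from control to reloading (0.45 ± 0.13, adjusted p = 0.0182), in both cases with ranges that did not overlap. The first was lost without mKO control replicates 1 or 2 or mKO unloading replicate 2 (adjusted p = 0.077 to 0.12), in a fit of only the compared groups (adjusted p = 0.0526) and with myofibre scaling (0.0723). The second was lost without flox control replicate 2 or flox reloading replicate 2 (adjusted p = 0.0623 to 0.0774). Ugp2, which makes UDP-glucose, rose in flox from unloading to reloading (0.41 ± 0.12, adjusted p = 0.0115), though not without flox unloading replicate 1 or flox reloading replicate 1 (adjusted p = 0.0552 to 0.0779). Gyg, the glycogenin that primes new glycogen, fell in flox from unloading (-0.28 ± 0.07, adjusted p = 0.00332) and from control (-0.25 ± 0.07, adjusted p = 0.0103) to reloading. Both Gyg calls were lost with total-count scaling (adjusted p = 0.0662 and 0.286) and with myofibre scaling, where the second turned to 0.02; the second was also lost with no filter on low counts (adjusted p = 0.0624). Gys1, the muscle glycogen synthase, ranged from 365 to 556 CPM and passed nowhere.

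Among the regulators, Pfkfb3 had the largest log2 changes, and its libraries and those of Ppp1r3c spread widely in several groups. Pfkfb3 (chromosome 2, 11471433 to 11554077, GRCm38) and Pfkfb1 encode enzymes that set the level of fructose 2,6-bisphosphate, the activator of phosphofructokinase. Pfkfb3 is known as a target of hypoxia-inducible factors, so the windows at its RefSeq starts on GRCm38.p6 are printed with the hypoxia-response cores ACGTG and GCGTG, read on both strands, in capitals.
Pfkfb3, chr2:11502041-11502340, minus strand: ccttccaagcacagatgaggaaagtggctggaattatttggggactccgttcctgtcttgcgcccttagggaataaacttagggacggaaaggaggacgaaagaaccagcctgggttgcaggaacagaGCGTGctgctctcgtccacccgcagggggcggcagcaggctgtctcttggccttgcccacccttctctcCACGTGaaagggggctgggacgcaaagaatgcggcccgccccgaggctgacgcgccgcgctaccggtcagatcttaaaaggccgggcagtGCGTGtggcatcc
Pfkfb3, chr2:11553880-11554179, minus strand: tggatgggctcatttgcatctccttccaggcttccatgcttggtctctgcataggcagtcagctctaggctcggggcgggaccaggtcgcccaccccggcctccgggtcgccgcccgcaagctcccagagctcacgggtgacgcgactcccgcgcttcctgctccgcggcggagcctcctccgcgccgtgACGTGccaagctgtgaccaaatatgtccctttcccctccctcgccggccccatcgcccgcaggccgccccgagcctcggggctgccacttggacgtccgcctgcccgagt
The first window held 2 matches to ACGTG, which overlap in a palindrome, and 2 to GCGTG, and the second held 1 to ACGTG. Of 30 members with a window, 17 held ACGTG and 18 held GCGTG, against 21.8% and 35.2% of all genes. These matches describe letters and say nothing of binding in this muscle.

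Pfkfb3 stood at 308, 155 and 176 CPM in the flox control libraries, 665, 960.1 and 462 CPM after unloading and 123, 350.3 and 157 CPM after reloading. For Pfkfb3 in the mKO libraries the levels were 566, 579.5 and 547, then 656, 1318 and 604, then 348, 166 and 218 CPM. In flox the unloaded libraries lay above the controls and the reloaded libraries, and in mKO the reloaded libraries lay below both other groups. Pfkfb3 rose on flox unloading (1.71 ± 0.39, adjusted p = 0.016), 3.27-fold, and fell on reloading in flox (-1.73 ± 0.39, adjusted p = 0.00254) and mKO (-1.82 ± 0.39, adjusted p = 0.00377). The rise was lost without flox control replicates 2 or 3 or flox unloading replicate 2 (adjusted p = 0.0609 to 0.0845). On mKO unloading the change was 0.61 ± 0.38, adjusted p = 0.367. The mKO controls already lay above the flox controls, without overlap: that genotype difference was 1.41 ± 0.39, adjusted p = 1 (unadjusted p = 0.00198). With no filter on low counts it was called (adjusted p = 1.96e-39), as was the genotype difference in the unloading change (-1.10, adjusted p = 1.11e-11 against 1 with the filter). The first estimate was 1.40 without the filter, and the second also hardly moved. Only the p changed, with 3 libraries per group as before, so these calls are not taken as evidence of a difference.

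Pfkfb1 stood at 61.2, 65.4 and 72.8 CPM in the flox control libraries, 63.5, 70.1 and 74.5 CPM after unloading and 32.2, 35.4 and 44.3 CPM after reloading. For Pfkfb1 in the mKO libraries the levels were 59.7, 77.2 and 57.7, then 50.5, 56.4 and 56.1, then 66.6, 36.9 and 60.3 CPM. The reloaded flox libraries were below all other flox libraries, and the reloaded mKO libraries spanned the unloaded ones. Pfkfb1 fell in flox from unloading (-0.89 ± 0.17, adjusted p = 0.000568) and control (-0.83 ± 0.17, adjusted p = 0.00163) to reloading, and in mKO the reloading change was 0.01 ± 0.17, adjusted p = 0.986. The difference between those reloading changes, mKO minus flox, was 0.90 ± 0.24, adjusted p = 0.166, which did not pass; DESeq2 gave an adjusted p of 0.0334.

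Ppp1r3a and Ppp1r3c target protein phosphatase 1 to glycogen, where it switches glycogen synthase on and phosphorylase kinase off. Ppp1r3a stood at 636, 623 and 732 CPM in the flox control libraries, 730.5, 570.2 and 706 CPM after unloading and 435, 452 and 504 CPM after reloading. For Ppp1r3a in the mKO libraries the levels were 663, 639.6 and 688, then 815, 705 and 884, then 561, 400 and 638 CPM. The reloaded libraries lay below the other libraries of their own genotype. Ppp1r3a fell from unloading to reloading in flox (-0.53 ± 0.14, adjusted p = 0.00663) and mKO (-0.59 ± 0.14, adjusted p = 0.00628), and in flox from control (-0.52 ± 0.14, adjusted p = 0.0109). With myofibre scaling the flox changes had adjusted p = 0.0507 and 0.171, and the last was also lost without flox control replicate 3 (adjusted p = 0.0542). Ppp1r3c stood at 93.8, 128 and 184 CPM in the flox control libraries, 126, 147 and 157 CPM after unloading and 432, 257 and 276 CPM after reloading. For Ppp1r3c in the mKO libraries the levels were 59.5, 177 and 137, then 140.2, 374 and 264, then 106, 342 and 136 CPM. The reloaded flox libraries were above all flox control and unloaded libraries, while the mKO groups overlapped. Ppp1r3c was higher in reloaded flox muscle than after unloading (1.17 ± 0.43, adjusted p = 0.0444) and in controls (1.25 ± 0.43, adjusted p = 0.0424). The first call was lost with any 1 of its 6 libraries left out (adjusted p = 0.0539 to 0.168) and with DESeq2 (0.0574). The second was lost without flox control replicates 1 or 2 or flox reloading replicates 1, 2 or 3 (adjusted p = 0.0531 to 0.158).

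Between genotypes, edgeR called 3 of 33 members after reloading and 0 before it, and none of the 3 calls held under every setting. At control and at unloading edgeR called 0 of 33 members (background 0 and 0% of all genes called), and DESeq2 also called 0 in each. An unadjusted p under 0.05 was reached there by 4 and 2 members (718 and 816 of all 17833 genes). With no filter on low counts 1 was called in each, Pfkfb3 at control and Ppp1r3c at unloading (0.86, adjusted p = 1.55e-14). Over all genes 148 and 133 were called there. The estimates hardly moved from those with the filter, so these calls are not taken as evidence of a difference. The smallest p at control were those of Pfkfb3, Slc2a1 (-0.34 ± 0.12, adjusted p = 1) and Pgam1 (-0.35 ± 0.13, adjusted p = 1). At unloading they belonged to Slc16a1 (-0.33 ± 0.10, unadjusted p = 0.00541, adjusted p = 1), Pfkfb1 (-0.35 ± 0.17, unadjusted p = 0.0494, adjusted p = 1) and Ppp1r3c (0.85 ± 0.42, unadjusted p = 0.0593, adjusted p = 1). After reloading 3 members were higher in mKO than in flox muscle and 0 lower: Gpd1 (0.48 ± 0.10, adjusted p = 0.0116), Pygm (0.45 ± 0.12, adjusted p = 0.043) and Phkg1 (0.38 ± 0.09, adjusted p = 0.0138). Of all genes, 4.91% were called in either direction, and 21.6% of those calls were higher in mKO. In all, 27 of 33 differences were positive, with a member median of 0.222 against 0.005 for all tested genes. An unadjusted p under 0.05 was reached by 19 members and by 3519 of all 17833 genes. The ranges did not overlap and were higher in mKO for 17 members (9.58% of all genes) and lower for 2 (12.8%).

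The genotype calls changed with the scaling, with single libraries and with the groups fitted. With RLE size factors all 3 were called. With total counts the median difference of all genes moved to -0.129 and that of the members to 0.088, with 1 member called higher (Gpd1) and 2 lower (Hk1, -0.49, adjusted p = 0.0125; Pgam1, -0.49, adjusted p = 0.0479). With myofibre scaling all genes had a median of -0.309 and the members -0.089. Gpd1 was then at 0.16 (adjusted p = 0.24), Pygm at 0.13 (adjusted p = 0.245) and Phkg1 at 0.07 (adjusted p = 0.704), while Hk1 at -0.67 (adjusted p = 0.00396), Pgam1 at -0.66 (adjusted p = 0.0164) and Gbe1 at -0.58 (adjusted p = 0.0146) were called lower in mKO, and 6 of 33 differences were positive. Of all 17833 genes, 875 were called with TMM, 1485 with total counts and 3383 with myofibre scaling. The share of those calls higher in mKO went from 21.6% with TMM to 2.42% with total counts and 0.236% with myofibre scaling. The members called lower under the last 2 scalings are therefore not read as a result about the members. The member median exceeded the all-gene median by 0.217 with TMM, 0.217 with total counts and 0.220 with myofibre scaling. Scaling shifts all genes of a comparison by nearly the same amount, so these values had to be close and are no separate check. Leaving out 1 library gave 0 to 10 called members: 0 without flox reloading replicate 2 or mKO reloading replicate 3, 2 without flox reloading replicate 1 or mKO reloading replicate 1, 4 without flox reloading replicate 3, and 10 (8 higher, 2 lower) without mKO reloading replicate 2. The calls over all genes moved too, from 875 in the main fit. They were 521, 185 and 807 without flox reloading replicates 1, 2 and 3, and 364, 1630 and 127 without mKO reloading replicates 1, 2 and 3. In a fit of only the 2 compared groups 0 passed, with differences of 0.48 for Gpd1 (adjusted p = 0.0774), 0.45 for Pygm (adjusted p = 0.119) and 0.39 for Phkg1 (adjusted p = 0.0821), and DESeq2 called 8. Over all genes that fit called 443 and DESeq2 called 1380.

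**Figure D3:**
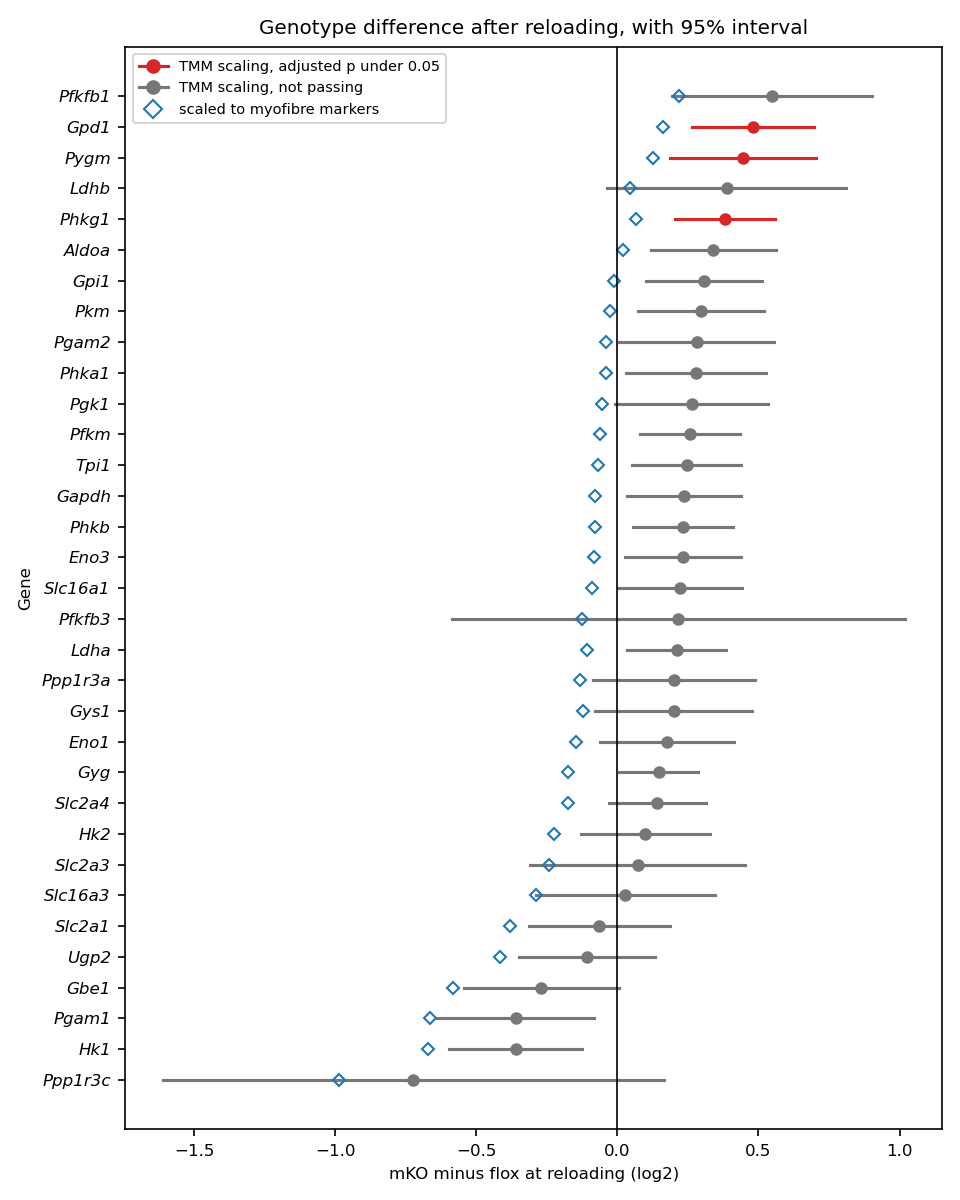
Difference between mKO and flox muscle after reloading (horizontal axis, log2) for each of the 33 genes, as TMM-scaled estimates with 95% intervals (circles; red where the adjusted p was under 0.05) and as estimates scaled to myofibre markers (open diamonds). With TMM 27 genes lie above 0, and with myofibre scaling 6 do.

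Whether the loading response itself differed between genotypes was tested directly. For unloading against control, reloading against unloading and reloading against control, edgeR called 0 of 33 members in each (background 0, 0 and 0.522%). An unadjusted p under 0.05 was reached by 0, 10 and 10 members, and by 733, 1873 and 2364 of all 17833 genes. DESeq2 called 0, 2 and 1 members, and 0, 165 and 477 genes over all. In the first, the smallest p were those of Pfkfb3 (-1.10 ± 0.54, unadjusted p = 0.0567, adjusted p = 1), Slc2a3 (-0.48 ± 0.24, unadjusted p = 0.0588, adjusted p = 1) and Slc2a1 (0.30 ± 0.17, unadjusted p = 0.0906, adjusted p = 1). In the reloading change from unloading they were those of Pfkfb1, Slc16a1 and Phkg1 (0.37 ± 0.12, adjusted p = 0.268). From control they were those of Pygm (0.57 ± 0.17, adjusted p = 0.141), Slc16a1 (0.46 ± 0.15, adjusted p = 0.165) and Phkg1 (0.35 ± 0.12, adjusted p = 0.187). DESeq2 called the Pygm difference (adjusted p = 0.0389). A fall called in flox and not in mKO muscle, as for Pygm, Aldoa or Gpd1, was therefore not shown to be a genotype difference by the main test.

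Ratios between isozymes do not depend on how libraries are scaled. The log2 ratio per kilobase of Hk1 to Hk2 was -5.61 ± 0.19 (SD, n = 3) in flox controls, -5.73 ± 0.20 after unloading and -5.00 ± 0.05 after reloading, and the reloaded libraries (-5.04 to -4.95) lay above all others of the genotype. In mKO it was -5.63 ± 0.16, -5.63 ± 0.10 and -5.45 ± 0.17, with overlapping ranges. Phka2, the liver alpha subunit, stood to Phka1 at -6.50 ± 0.04, -6.68 ± 0.11 and -5.60 ± 0.08 in flox and at -6.39 ± 0.17, -6.69 ± 0.18 and -6.11 ± 0.06 in mKO muscle. In both genotypes the reloaded libraries lay above all others of the genotype, in mKO from -6.18 against at most -6.20 in controls. Pygb, the brain phosphorylase, stood to Pygm at -9.86 ± 0.11, -9.97 ± 0.27 and -8.93 ± 0.14 in flox, where the reloaded libraries lay apart, and at -9.63 ± 0.20, -9.93 ± 0.33 and -9.74 ± 0.25 in mKO muscle. Even at its highest mean, the ratio left Pygm 487-fold above Pygb per kilobase. Eno1 to Eno3 went from -7.95 ± 0.09 to -7.54 ± 0.18 in flox and from -7.94 ± 0.09 to -7.60 ± 0.13 in mKO muscle between control and reloading, within the limit that copies of Eno1 set on its level. In flox, Pgam1 to Pgam2 went from -8.54 ± 0.065 to -8.32 ± 0.15 and Ldhb to Ldha from -2.59 ± 0.145 to -3.01 ± 0.38. In mKO they went from -8.89 ± 0.17 to -8.98 ± 0.35 and from -2.90 ± 0.34 to -2.86 ± 0.36. The control and reloaded ranges of both pairs overlapped in each genotype. Copies also limit the level of Pgam1.

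**Figure D4:**
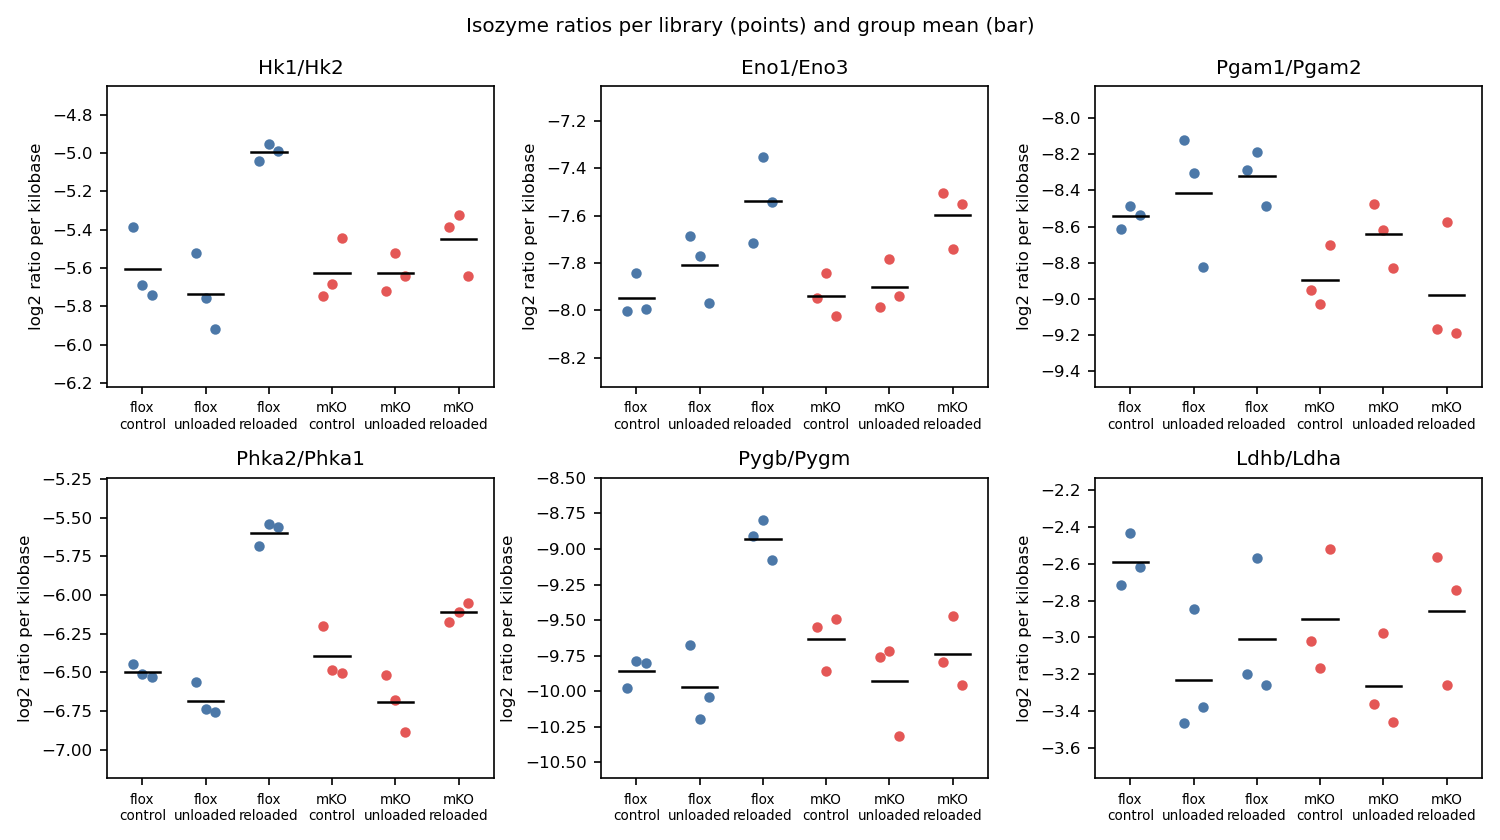
Log2 ratio per kilobase (vertical axes) of 6 isozyme pairs in each library (points) of the 6 groups, with group means as bars. For Hk1 to Hk2, Phka2 to Phka1 and Pygb to Pygm the reloaded flox libraries lie above the other flox libraries. For Phka2 to Phka1 the reloaded mKO libraries also lie above the other mKO libraries.

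Further genes of the pathway were read from 6 lists with 98 genes in all. Among 20 tested other glycogen genes, 1 rose and 1 fell on flox unloading (background 2.67% and 3.07%; list median -0.05), 3 rose and 7 fell from unloading to reloading (17% and 14.9%; median -0.17), and 2 rose and 5 fell from control to reloading (12.3% and 10.3%; median -0.16). In that second comparison Gys2, the liver glycogen synthase, which was scarce at 0.130 to 0.501 CPM over all libraries, fell by 1.38 ± 0.42 (adjusted p = 0.0173), and Stbd1, which tethers glycogen to membranes, rose by 1.18 ± 0.20 (adjusted p = 0.000221). In mKO the same step gave 1 rise, Stbd1 (0.91 ± 0.20, adjusted p = 0.0041), and 5 falls (background 9.53% and 8.81%; median -0.20), among them Epm2a, the glycogen phosphatase laforin (-0.52 ± 0.08, adjusted p = 0.000385).

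Among 12 tested other glycolysis enzymes, 2 rose and 3 fell from flox unloading to reloading (background 17% and 14.9%; list median -0.09): Hk3, a hexokinase of white blood cells, rose by 1.46 ± 0.32 (adjusted p = 0.00171), and Adpgk, an ADP-dependent glucokinase, fell by 0.61 ± 0.12 (adjusted p = 0.000676). Adpgk had risen on unloading in flox (0.56 ± 0.12, adjusted p = 0.00953) and mKO (0.48 ± 0.12, adjusted p = 0.0199). Of 15 tested transport genes, 4 rose and 4 fell in the same comparison (median 0.20). Emb, a chaperone of lactate carriers, rose by 0.96 ± 0.21 (adjusted p = 0.00207), and Txnip, a brake on glucose uptake, fell by 0.81 ± 0.15 (adjusted p = 0.000494) after rising on unloading (0.71 ± 0.15, adjusted p = 0.00996). Txnip was higher in reloaded mKO than flox muscle (0.61 ± 0.15, adjusted p = 0.0237) and Emb lower (-0.78 ± 0.21, adjusted p = 0.0406). Neither was called between genotypes at control or unloading. Txnip already lay higher in mKO controls, at 616.5 to 685 CPM against 389.9 to 604.8 CPM in flox controls, and its unloaded ranges overlapped. Calls of list genes were not checked under the other settings. For pyruvate entry to mitochondria, 1 of 14 genes rose and 6 fell from flox control to reloading (background 12.3% and 10.3%; median -0.27). From mKO control to reloading edgeR called 0 of the 14 (background 1.34% and 0.841%; median -0.02), a count near that background. The glycolytic flux regulators (16 tested) had 3 rises and 4 falls from flox unloading to reloading (background 17% and 14.9%; median -0.003), among them Mlxipl, a glucose-sensing transcription factor (0.65 ± 0.14, adjusted p = 0.00208). In the list of pentose phosphate and gluconeogenic genes (14 tested), 1 rose and 1 fell in that flox comparison and 0 rose and 2 fell in the mKO one (background 9.53% and 8.81%). Fbp2, muscle fructose bisphosphatase, fell from unloading to reloading by 0.91 ± 0.19 in flox (adjusted p = 0.00158) and by 0.86 ± 0.19 in mKO muscle (adjusted p = 0.00475).

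Cell type markers moved with the flox reloading changes of the members. From unloading to reloading in flox, 6 of 13 myofibre markers fell and 2 rose, 12 of 15 macrophage and monocyte markers rose, and all 8 proliferation markers rose. Of 8 fibroblast markers 5 rose and 1 fell there, with Col3a1, a fibrillar collagen, 8.27-fold higher, and of 8 endothelial markers 4 rose and 1 fell. Fibroblast markers summed to 1035 to 1213 CPM in unloaded and 2334 to 3365 CPM in reloaded flox libraries, and to 935.5 to 1180 CPM and 1762 to 2140 CPM in mKO, where 4 rose. Endothelial markers summed to 375.5 to 384.3 CPM and 444.4 to 498.8 CPM in flox, and to 348.5 to 388.4 CPM and 401.2 to 428.6 CPM in mKO, where 3 rose. On unloading 4 fibroblast markers fell in flox and 5 in mKO muscle, from control sums of 1538 to 1818 CPM and 1529 to 2062 CPM. In reloaded mKO libraries myofibre markers summed to 156700 to 192700 CPM and macrophage markers to 176.4 to 252.8 CPM. In unloaded mKO libraries the sums were 154800 to 178700 CPM and 120.5 to 180.1 CPM. Between these mKO groups, 2 of 13 myofibre markers rose and 1 fell, 4 of 15 macrophage markers rose and 7 of 8 proliferation markers rose. Proliferation markers went from 1.22 to 2.75 CPM to 11.9 to 17 CPM in mKO, and from 1.46 to 5.17 CPM to 52.3 to 72.1 CPM in flox. No myofibre, macrophage, fibroblast or endothelial marker was at 0 in all libraries of a group. With myofibre scaling the flox counts were 6 rises and 10 falls from unloading to reloading, and 6 rises and 4 falls from control to reloading, where Aldoa, Gpd1, Phkb, Phkg1, Ppp1r3a and Gyg were no longer called as falling. Of all 17833 genes, the number called went from 5692 to 4644 and from 4035 to 4833 in these comparisons. The all-gene median moved to 0.178 and 0.277, and the share of higher calls over all genes from 53.3 to 81.3% and from 54.3 to 92.2%. Total counts gave shares of 71.8 and 80.5%. Phka1, Pygm, Pfkm and Pfkfb1 were called as falling in both comparisons with myofibre scaling too. What part the other cells of the muscle had in the remaining changes was not tested.

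**Figure D5:**
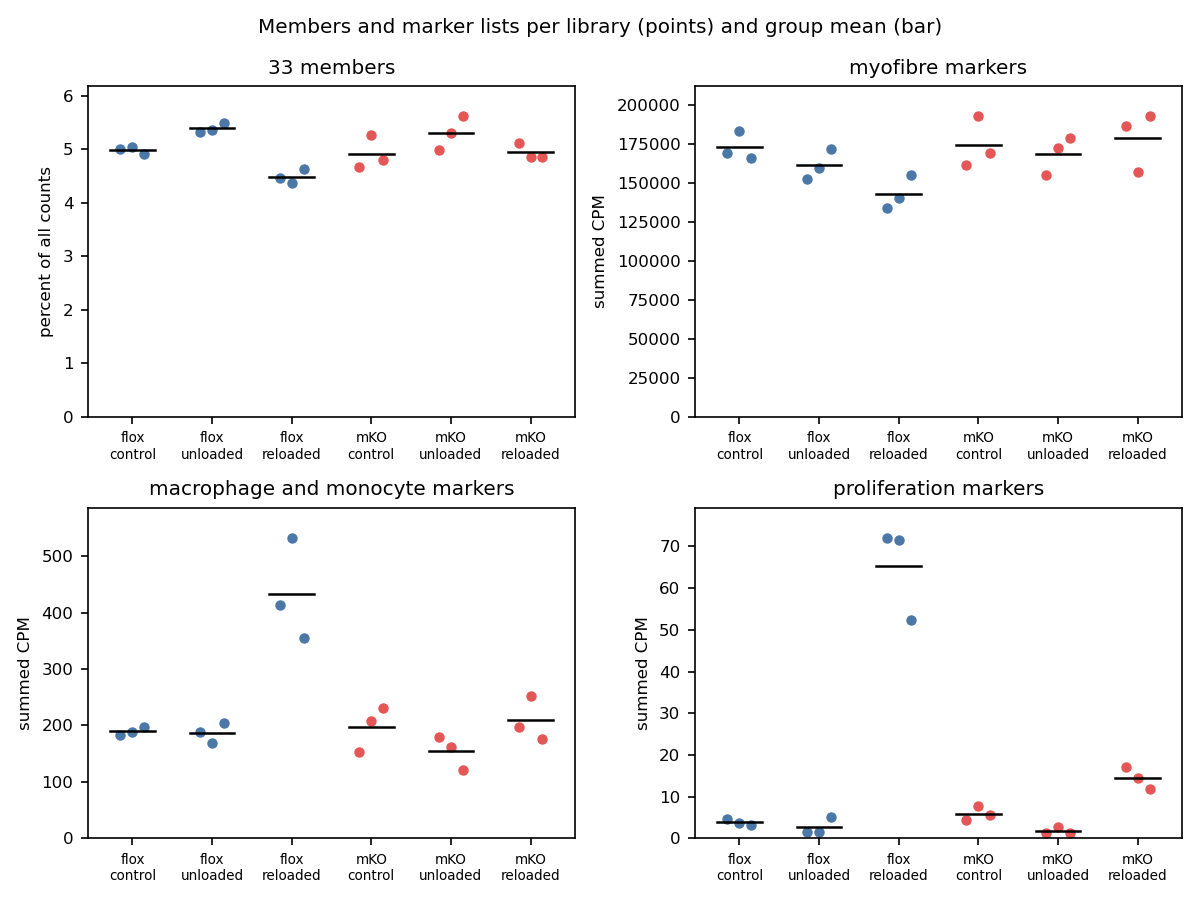
Share of all counts taken by the 33 genes (percent) and summed CPM of 3 marker lists in each library (points) of the 6 groups, with group means as bars; all vertical axes start at 0. Reloaded flox libraries have the lowest member share, 4.36 to 4.62%, and the highest macrophage sums, 354.5 to 533.1 CPM.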

How the data were processed

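Polyadenylated RNA from mouse gastrocnemius was sequenced in 18 libraries, 3 in each of 6 genotype-by-loading groups, made with a stranded kit according to the labels. Per the submitters' processing notes, alignment used STAR 2.7.3a on GRCm38.p6 and counting used featureCounts 2.0.3; the header of the count file instead records featureCounts 1.6.4 with a release 94 GTF. The values the authors deposited are unscaled counts per gene, and the command in its header shows no option for strand or for reads that map to several places.

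All 18 libraries (45069595 to 51592566 counts) entered 1 edgeR 4.0.16 fit in R 4.3.3 after its default filter on low counts, with TMM factors, 6 group means and 12 residual degrees of freedom. The quasi-likelihood F test gave 12 comparisons, with Benjamini-Hochberg adjustment over 17833 genes and a threshold of 0.05. Each standard error was obtained by dividing a log2 fold change by the root of its F statistic. The procedure was tested on simulated data. Groups came from the sample labels, replicate numbers were not treated as pairs (correlation of same-numbered deviations -0.074 to 0.126), and 18 within-group pairs showed no duplicate.

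The members and lists were chosen with earlier results of these data known. All members were accounted for; called members were named, with values for up to 5 rises and 5 falls per comparison, levels per library were given for members called with a log2 change of at least 0.5, the 3 smallest p where none was called, and up to 3 called genes per pathway list; 1 gene of the lists is counted but not reported here by name. Alternatives were RLE factors, total counts, no filter, a filter of 1 CPM in 3 libraries, a replicate block, DESeq2 1.42.0, a fit of only the compared groups, leaving out each library and, added after seeing the data, scaling to myofibre markers. The authors' own result tables were not used. Sequences are from RefSeq, GRCm38.p6, and shared 50-base stretches from the longest GENCODE transcript of each member.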

Additional observations from a re-analysis of the deposited data

How the results depend on the processing

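Of the 56 member calls, 55 held with RLE size factors, with no filter on low counts and with DESeq2, 50 with total counts, 47 in a fit of only the compared groups and 39 with myofibre scaling, where 16 lost their call and 1 turned its sign (Gyg, flox reloading against control, 0.023). The stricter filter and the replicate block kept all 56; the block added Slc2a1 on mKO unloading (0.36, adjusted p = 0.0495) and Phkb for mKO reloading against control (-0.31, adjusted p = 0.0432). Same-numbered libraries deviated together by a median r of 0.024, against -0.004 for libraries of different numbers, and 9 of 18 correlated best with their own number. The labels state no pairing, and this check cannot exclude one, so the main fit did not treat replicate numbers as pairs. With no filter the counts of called members became 6 (flox unloading), 7 (mKO unloading), 8 (mKO reloading against control), 1, 1 and 8 (mKO against flox at control, unloading and reloading), and 2, 3 and 6 (genotype differences in the unloading change, the reloading change from unloading and that from control). Calls over all genes rose too, in the same order. For loading they went from 1024 to 1651, 1382 to 1876 and 389 to 1216. Between genotypes they went from 0 to 148, 0 to 133 and 875 to 1557. For the genotype differences they went from 0 to 122, 0 to 564 and 93 to 755. DESeq2 gave 4 for mKO reloading against control, 8 for mKO against flox at reloading, and 2 and 1 for the differences in the reloading changes. Over all genes it called, in that order, 878, 1380, 165 and 477. A fit of only the compared groups gave 1 for mKO reloading against control and 0 for mKO against flox at reloading, RLE factors gave 1 for mKO reloading against control, and myofibre scaling 2 for mKO unloading and 1 for mKO reloading against control. Over all genes these settings called, in that order, 138, 443, 401, 418 and 142. The cause of the moves was not tested. Leaving out 1 library gave 1 to 4 calls for flox unloading, 14 to 18 and 10 to 12 for flox reloading against unloading and control, 1 to 4 for mKO unloading, 9 to 11 and 0 to 1 for mKO reloading against unloading and control, 0 to 10 for mKO against flox at reloading, and 0 to 1 and 0 to 2 for the differences in the reloading changes; it gave 0 for mKO against flox at control and unloading and for the difference in the unloading change. Over all genes the flox loading ranges were 364 to 801, 4241 to 5136 and 2758 to 3642 calls, in that order. In mKO they were 508 to 1466, 2058 to 3245 and 85 to 394. They were 127 to 1630 for mKO against flox at reloading, and 0 to 98 and 0 to 448 for the reloading differences. The lowest count of a member in a library was 79, for Slc2a3, which had 79 to 490 counts; of the other genes named, Gys2 lay lower, at 0.130 to 0.501 CPM.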
